A study of Homo sapiens with 4 samples.

Results

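The SALL family holds 4 human genes, SALL1, SALL2, SALL3 and SALL4, which encode the vertebrate counterparts of the spalt zinc finger transcription factors of the fruit fly. They form a named gene family, chosen by their intensities in these 4 lines, which were known beforehand, and all 4 were measured, out of 19775 genes on the array with a probe set of their own. Expression was measured in 4 established cell lines of human testicular germ cell tumours, each on 1 oligonucleotide array. The labels name a seminoma as the source of TCam-2, a teratoma for NT2D1, an embryonal carcinoma for GCT27 and a yolk sac tumour for GCT44. NT2D1 came from a lung metastasis by its label, is a clone of the NTERA-2 line, and commonly serves as a model of pluripotent embryonal carcinoma cells. All lines were grown without any treatment named, in medium with 10% fetal bovine serum and penicillin with streptomycin. The medium was RPMI for TCam-2 and DMEM for the others, so medium and line cannot be told apart for TCam-2. By its title, the study searched for genes that are silenced in non-seminoma lines.

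SALL proteins bind DNA through clustered zinc fingers and recruit the nucleosome remodelling and deacetylase complex, NuRD, through a short motif at their N-terminus, by which they mostly repress transcription. SALL4 is a factor of pluripotent cells and of the germ line, and pathologists stain for it as a marker of most germ cell tumours. SALL1 is needed for kidney development and is mutated in Townes-Brocks syndrome, and SALL4 is mutated in Duane-radial ray syndrome. SALL2 is linked to eye development and growth arrest, and SALL3 to cranial nerve development.

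The values are linear intensities in the authors' units, and each gene is represented by its own probe set with the highest mean. Intensities below 76.4 units, the median of all values, are not ordered on such arrays, so this level served as a floor for every fold difference. A fold that involves a value below the floor gives only a bound, marked by the words "at least". No line has a second array, so differences are given without replicate error or p-value, and the small number of arrays limits their precision. Array medians ran from 73.6 to 79.3 units. The signal ratio of the 3' to the 5' control probes for ACTB was 4.21 on the GCT44 array and 2.49 to 2.97 elsewhere, and the GAPDH ratio ran from 0.90 to 1.09 over all arrays. The part of RNA quality in the values of GCT44 was not tested.

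The lines were first set against markers of their labels. In TCam-2, 4 of 7 seminoma markers compared lay at least 4-fold above every other line, among them SOX17 and TFAP2C, against 1.49% of all 14926 genes compared. Other seminoma markers did not set TCam-2 apart. KIT was lowest there at 1144 units, with 1160 to 1771 elsewhere. PRDM1 had 2481 units there and 1550 in GCT44, PDPN had 2831 there and 2294 in GCT27, and NANOS3 was below the floor in every line. In GCT44, 6 of 9 yolk sac tumour markers lay at least 4-fold above every other line, against 1.70%. AFP, the serum marker of that tumour, had 372 units there and at most 126 elsewhere. GPC3 was not highest in GCT44, with 740 units against 2578 in NT2D1 and 1019 in GCT27, and GATA4 had 104 units in GCT44, near the floor. Of 6 embryonal carcinoma markers compared, 0 lay at least 4-fold above every other line in GCT27, against 0.603% of all genes compared, and 0 in NT2D1. SOX2, GDF3 and USP44 were high in both GCT27 and NT2D1, with SOX2 at 18309 and 20575 units. DNMT3B had 23760 and 11360 units in these lines and 2841 in TCam-2. CD24, with 29376 and 26123 units, was also high in TCam-2 at 15790 units. FGF4 had 791 and 696 units, and 344 in TCam-2. In NT2D1 the neural microtubule gene MAP2 was 75.9-fold above the next line at 5940 units, and the neural progenitor gene NES and the tubulin gene TUBB3 were highest there at 2259 and 15501 units, though close to the 1715 and 15223 units of GCT27. PAX6 had 85.3 units in NT2D1, and DCX had 129 there and 164 in GCT27. GFAP and ELAVL3 were below the floor in every line. With the floor applied, the 5 teratoma and neural markers compared summed to 23914 units in NT2D1 and 4662 to 17254 elsewhere. These sums are mostly TUBB3, and in NT2D1 also MAP2. Of the 5, 1 was at least 4-fold above every other line in NT2D1, namely MAP2, against 0.523% of all genes compared. NT2D1 is called by its name, since the embryonal carcinoma markers SOX2, GDF3 and USP44 were high in it too. Markers of other cell types were mixed. Of 5 trophoblast markers compared 4 lay at least 4-fold above every other line in TCam-2, against 1.49% of all genes compared. By the same size, of 5 fibroblast and blood markers LUM was higher and COL1A1 lower there, where 0.744% of all genes compared were lower. COL1A2 was lower in NT2D1, where 0.241% were. The leukocyte gene PTPRC was below the floor in every line. The summed intensity of the 5 trophoblast markers, with the floor applied, was 7838 units in TCam-2 and 603 to 826 elsewhere, and its part in the SALL values was not tested.

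**Figure D1:**
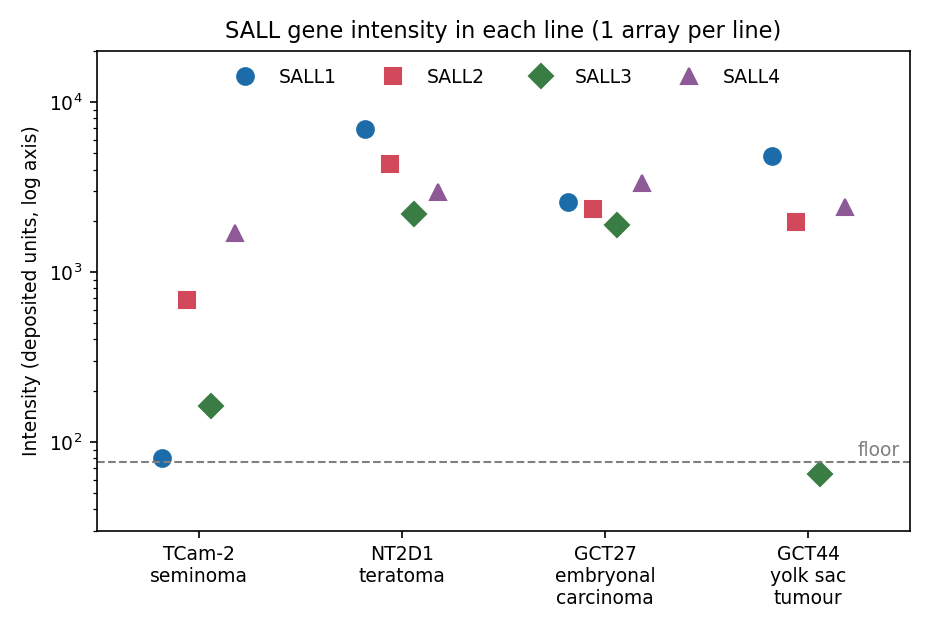
Intensity of each SALL gene in the 4 lines on a log axis, 1 array and 1 point per gene and line, with the floor of 76.4 units as a dashed line. SALL1 sits near the floor only in TCam-2, SALL3 lies below it in GCT44 and at 163 units in TCam-2, and SALL4 lies between 1695 and 3356 units in every line.

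The 4 genes followed different patterns over the lines. SALL4 was present at similar levels in all 4, SALL1 lay at about the floor in TCam-2 alone, SALL3 was high in NT2D1 and GCT27 and low in TCam-2 and GCT44, and SALL2 was present everywhere with its lowest level in TCam-2. TCam-2 had the lowest value of the 4 lines for SALL1, SALL2 and SALL4, and GCT44 for SALL3. NT2D1 had the highest value for SALL1, SALL2 and SALL3, and GCT27 for SALL4. Of the 24 differences given by 4 genes and 6 pairs of lines, 8 reached 4-fold, of which 4 belonged to SALL3, 3 to SALL1, 1 to SALL2 and 0 to SALL4. Over all genes compared and the same pairs, 8.06% of differences reached 4-fold. Each value averages a whole culture, so fewer expressing cells and less RNA per cell cannot be told apart. Levels of different SALL genes are not set against each other, because each comes from a different probe set.

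Between the highest and the lowest line, SALL1 differed 85.6-fold, SALL3 at least 28.7-fold, SALL2 6.30-fold and SALL4 1.98-fold. Among the 14926 genes compared, those whose highest value reached the floor, 20.5% had a difference of at least 4-fold and the median difference was 1.09 on the log2 scale. A difference as wide as that of SALL1 was found for 0.516% of the genes compared, as that of SALL3 for 2.23%, as that of SALL2 for 11.6% and as that of SALL4 for 55.3%. These shares place the members and are no test, since the members were chosen with these values known.

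**Figure D2:**
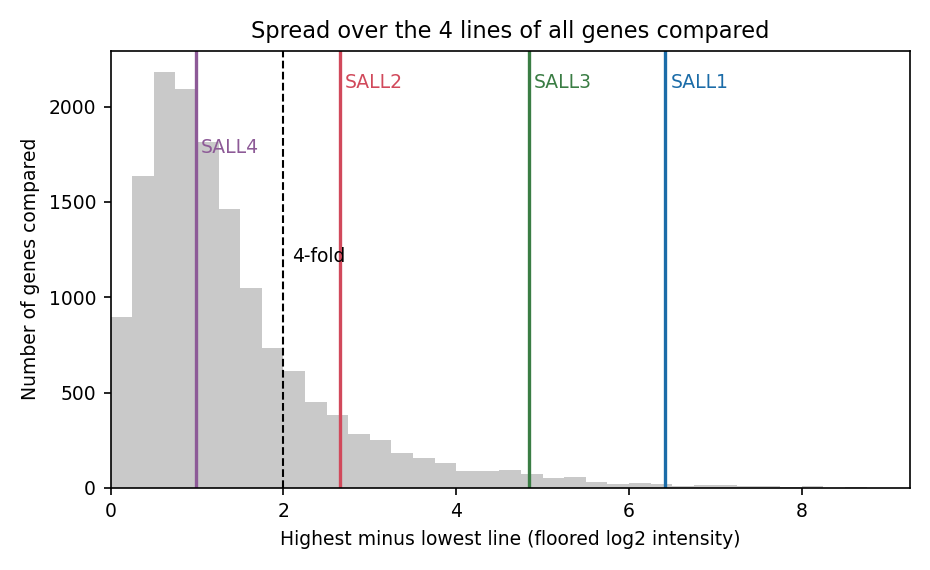
Number of genes (vertical axis, 14926 in all) by the log2 difference between their highest and lowest line after the floor (horizontal axis), with the 4 SALL genes as coloured lines and a difference of 4-fold as a dashed line. SALL4 at 0.99 lies close to the median of 1.09, SALL2 lies at 2.66, and SALL3 at 4.84 and SALL1 at 6.42 lie in the right tail.

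SALL4, the family member tied most closely to pluripotent cells and germ cells, had 2949 units in NT2D1, 3356 in GCT27, 2414 in GCT44 and 1695 in TCam-2. Every line lay far above the floor, and the order was GCT27, NT2D1, GCT44 and TCam-2. Neighbours in that order differed by 1.14-fold, 1.22-fold and 1.42-fold, and with 1 array per line none of these steps can be set against a replicate spread. Over all genes compared, 45.6% lay within 2-fold in the 4 lines, as SALL4 did. The gene has a single probe set here, so its level was not checked by another. The reference gene table lists 7 pseudogenes named for SALL4 and 1 for SALL1, and whether these probe sets also detect such copies was not tested.

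SALL4 protein is the substrate through which thalidomide and related drugs are thought to cause limb defects, since the drugs bring it to cereblon, the substrate receptor of a CRL4 ubiquitin ligase. A list of this ligase and of other proteins that the drugs bring to it was therefore described beside SALL4. None of its 11 members compared reached 4-fold beyond the other lines in either direction, against 7.10% of all genes compared, a count near what that share would give for 11 genes. With the floor applied, 8 of the 11 lay within 2-fold over the lines, or 72.7% against 45.6% of all genes compared. The 8 include ZBTB16, which was below the floor in TCam-2 and GCT27, so its fold is only a lower bound. CRBN, which encodes cereblon, had 2391 units in NT2D1, 1222 in GCT27, 2454 in GCT44 and 1778 in TCam-2. The adaptor DDB1 had between 2413 and 4668 units and the scaffold CUL4A between 3451 and 5238. With the floor applied, the widest difference was that of NEDD8, the ubiquitin-like protein that activates the scaffold, at 3.09-fold, with 14294 units in GCT44. IKZF3, a lymphoid substrate of the same drugs, was below the floor in every line.

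SALL1, the kidney and limb gene of the family, had 6896 units in NT2D1, 2580 in GCT27, 4779 in GCT44 and 80.6 in TCam-2. TCam-2 stood apart at the floor, and the other 3 lines lay within 2.67-fold of one another. The order was NT2D1, GCT44, GCT27 and TCam-2, with steps of 1.44-fold, 1.85-fold and 32.0-fold. SALL1 was the only member to lie at least 4-fold beyond every other line, being lower in TCam-2, where 0.744% of the genes compared were called lower and 1.49% higher. The shares called higher and lower were 0.523% and 0.241% in NT2D1, 0.603% and 0.322% in GCT27, and 1.70% and 1.69% in GCT44. At least 4-fold above TCam-2 lay 4.05% of all genes compared in NT2D1, 3.79% in GCT27 and 4.38% in GCT44, as SALL1 did in all 3. Its value in TCam-2 is so near the floor that 32.0-fold is close to the widest difference the floor lets it show.

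SALL1 has 2 probe sets, and both gave this pattern. The one not used had 4483 units in NT2D1, 2762 in GCT27, 2983 in GCT44 and 57.6 in TCam-2, so that GCT27 lay at least 36.1-fold above TCam-2. The second probe set put TCam-2 below the floor, and its GCT27 and GCT44 values, 2762 and 2983 units, were close to each other. The order of GCT44 over GCT27 therefore rests mainly on 1 probe set, while the place of TCam-2 does not.

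**Figure D3:**
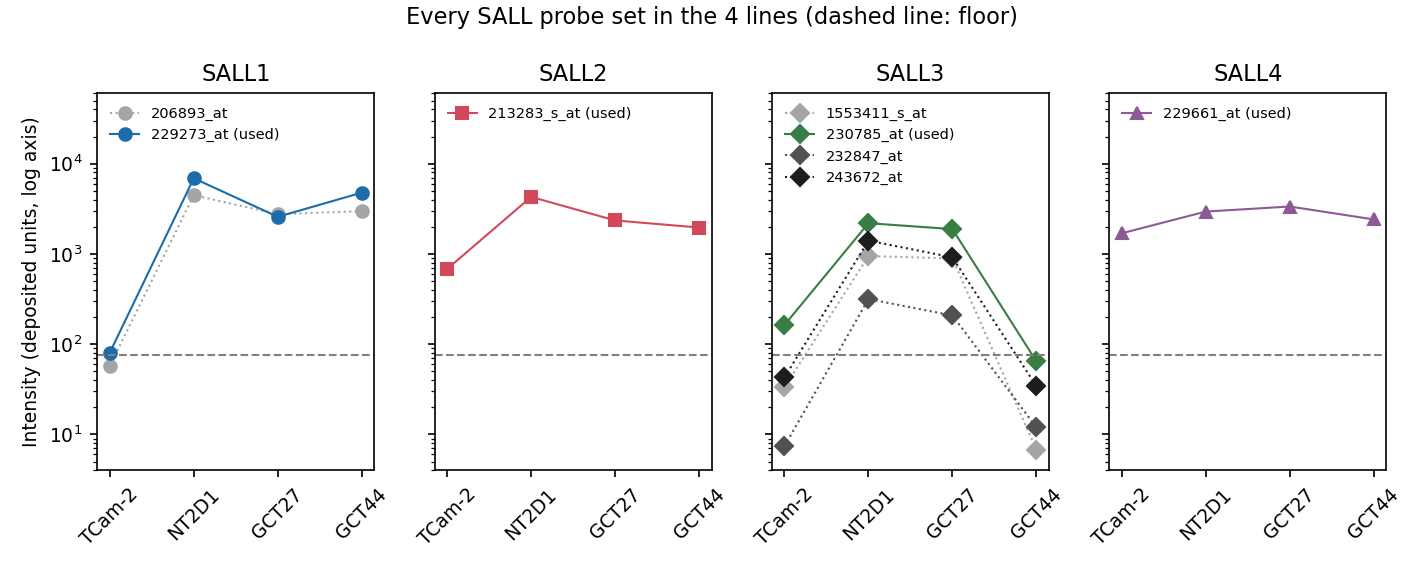
Intensity of all 8 SALL probe sets in the 4 lines on a log axis, in a panel per gene, with the probe set used as a solid coloured line, others as dotted grey lines and the floor as a dashed line. Both SALL1 probe sets drop only in TCam-2, and all 4 SALL3 probe sets are high in NT2D1 and GCT27 and low in TCam-2 and GCT44.

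SALL3, the member tied to cranial nerve development, had 2194 units in NT2D1, 1884 in GCT27, 64.4 in GCT44 and 163 in TCam-2. The lines split into a high pair, NT2D1 and GCT27, which differed by 1.16-fold, and a low pair, TCam-2 and GCT44. The lower of the high pair lay 11.6-fold above the higher of the low pair. Among all genes compared, 0.703% showed the same 2 lines at least 4-fold above the other 2. Against GCT44 the difference was at least 28.7-fold for NT2D1 and at least 24.7-fold for GCT27, where 4.76% and 5.30% of genes lay at least 4-fold higher. Against TCam-2 it was 13.5-fold and 11.6-fold, where 4.05% and 3.79% did. The SOX2 gene was also high in the same pair, with 391 units in TCam-2 and 6.41 in GCT44.

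All 4 probe sets of SALL3 gave the same high pair. The second brightest had 1405 units in NT2D1, 917 in GCT27, 34.2 in GCT44 and 42.8 in TCam-2, and the next had 948, 893, 6.74 and 33.3 units in that order. The dimmest had 316, 208, 11.9 and 7.39 units, and with TCam-2 at the floor its GCT27 value lay at least 2.72-fold above TCam-2. In 3 of the 4 probe sets both TCam-2 and GCT44 were below the floor. The excess of TCam-2 over GCT44, at least 2.13-fold, is thus seen only with the probe set used, and the order within the low pair is not settled.

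SALL2, the most divergent member, had 4288 units in NT2D1, 2352 in GCT27, 1962 in GCT44 and 681 in TCam-2. It was well above the floor in every line, highest in NT2D1 and lowest in TCam-2. The order was NT2D1, GCT27, GCT44 and TCam-2, with steps of 1.82-fold, 1.20-fold and 2.88-fold. NT2D1 lay 6.30-fold above TCam-2, where 4.05% of all genes compared lay at least 4-fold higher, and no other pair of lines reached 4-fold. TCam-2 lay 2.88-fold below the nearest line, short of 4-fold. SALL2 has 1 probe set, and its name ends in _s_at, which marks probes that can match several transcripts.

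The start regions of the members were examined because the study asked about silencing by DNA methylation, which acts at CpG dinucleotides, although methylation itself is not analysed here. The RefSeq promoter table for GRCh38.p14 was matched by symbol for SALL2 and SALL3 and was not matched for SALL1 and SALL4. The 250 bases before the annotated start of each are shown with CpG dinucleotides in capitals, for SALL2 at chr14:21537122-21537371 on the minus strand and for SALL3 at chr18:78979568-78979817 on the plus strand, because they differ so widely in CpG content.
SALL2: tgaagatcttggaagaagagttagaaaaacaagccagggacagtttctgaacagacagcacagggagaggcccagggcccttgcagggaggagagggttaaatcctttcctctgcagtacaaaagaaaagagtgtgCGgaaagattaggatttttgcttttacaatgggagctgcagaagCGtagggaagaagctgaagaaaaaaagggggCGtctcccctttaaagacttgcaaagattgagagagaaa
SALL3: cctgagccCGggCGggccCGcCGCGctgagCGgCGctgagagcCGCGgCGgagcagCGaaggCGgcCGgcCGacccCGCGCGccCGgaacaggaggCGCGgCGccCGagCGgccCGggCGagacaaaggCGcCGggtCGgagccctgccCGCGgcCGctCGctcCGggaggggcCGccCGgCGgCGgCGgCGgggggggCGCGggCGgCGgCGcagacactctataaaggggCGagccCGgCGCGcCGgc
The SALL3 region held 49 CpG dinucleotides and was 84.4% G and C, and only 0.205% of 35114 promoter regions of the same length held as many. Its ratio of observed to expected CpG was 1.11, against a median of 0.56 over all regions. The SALL2 region held 3 CpG dinucleotides and was 46.0% G and C, with a ratio of 0.25, and 29.3% of regions held as few. The median region held 11. SALL2 has an alternative first exon, so this region is 1 of its start sites.

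Short motifs were searched on both strands of the same 250 bases. The TATA motif TATAAA occurred 1 time in SALL3, with its first base 28 bases before the start, and 10.7% of all regions held it. The GC box GGGCGG, which contains a CpG and so overlaps that count, occurred 3 times in SALL3 and 0 times in SALL2, and 42.6% of all regions held it. The repeat GAGAGAGA, chosen after the sequence was seen, occurred 1 time in SALL2, 10 bases before the start, and in 2.75% of all regions. The octamer ATTTGCAT, the sequence that POU factors bind, occurred in neither, and 1.63% of all regions held it. These matches describe the letters of the windows and no binding.

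The nearest protein-coding genes on the chromosomes of the members were described beside them. Of 8 such neighbours with a probe set of their own, 7 were compared and 0 lay at least 4-fold beyond every other line. Over all genes compared 7.10% did in either direction, so a count of 0 is near what this share would give for 7 genes. The rule finds only a line that stands alone, and SALL2, SALL3 and SALL4 do not meet it either. It therefore cannot show whether their patterns extended to a neighbour. TOX3, for 1, differed at least 30.8-fold over the lines without a call. TOX3, a transcription factor gene beside SALL1 on chromosome 16, had 2357 units in NT2D1, 705 in GCT27, 43.7 in GCT44 and 30.3 in TCam-2. It was below the floor in TCam-2 as SALL1 nearly was, but also in GCT44, where SALL1 had 4779 units. On the other side, the deubiquitinase gene CYLD had 94.4 units in NT2D1, 410 in GCT27, 362 in GCT44 and 77.2 in TCam-2. It was lowest in TCam-2, near the floor, as SALL1 was, but also low in NT2D1, where SALL1 was highest. For both TOX3 and CYLD, 1 gene without a probe set of its own was passed over.

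The neighbours of SALL3 on chromosome 18 were GALR1, a galanin receptor gene below the floor in every line, and ATP9B, a phospholipid flippase gene. ATP9B had 556 units in NT2D1, 375 in GCT27, 1295 in GCT44 and 1241 in TCam-2, and its higher pair of lines was the lower pair of SALL3. Beside SALL2 on chromosome 14, the RNA methyltransferase gene METTL3 had 901 units in TCam-2 and between 1862 and 2673 elsewhere, so it too was lowest in TCam-2, and DAD1, a subunit gene of the oligosaccharyltransferase found past 4 genes without a probe set, differed by 1.98-fold over the lines. Beside SALL4 on chromosome 20, ZFP64 differed by 1.50-fold, with 2060 to 3088 units, and ATP9A by 2.75-fold. No coordinates are given for these genes, as the files name no genome build.

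NuRD is the complex through which SALL proteins act on chromatin. None of its 15 subunit genes lay at least 4-fold beyond the other lines, a count near what the share of 7.10% over all genes compared would give for a list of this size. With the floor applied, 10 of the 15 lay within 2-fold over the 4 lines, or 66.7% against 45.6%. These 10 include CHD3, CHD5 and MTA2, which had values below the floor, so their folds are only lower bounds. The other 5 differed by less than 4-fold, among them the linker subunit gene GATAD2B with the widest difference, 2.57-fold. The remodelling ATPase CHD4 had 2799 units in NT2D1, 3719 in GCT27, 4040 in GCT44 and 2312 in TCam-2. The histone chaperone RBBP4 had between 9559 and 16749 units, and the deacetylases HDAC1 and HDAC2 had 7928 and 12861 units in TCam-2 and differed by 1.42-fold and 1.39-fold over the lines. The ATPase CHD3 had 135 units in TCam-2 and 15.5, below the floor, in NT2D1. Its paralogue CHD5 and the subunit gene MTA2 reached at most 87.4 and 101.5 units, so near the floor that no wide difference could show. The median difference over the lines was 0.81 on the log2 scale for the NuRD list and 0.87 for the CRL4 list, against 1.09 for all genes compared.

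Factors that work with SALL4 in pluripotent cells varied widely over the lines. Of 14 such genes 12 were compared, and 8 of these differed by at least 4-fold between their highest and lowest line, or 66.7% against 20.5% of all genes compared. Of the 12, 5 were at least 4-fold lower in GCT44, where 1.69% of all genes compared were, and 1 was higher in TCam-2, where 1.49% were. NANOG, a core pluripotency factor, had 13322 units in NT2D1, 22428 in GCT27, 2.29 in GCT44 and 22390 in TCam-2, at least 174-fold lower in GCT44 than elsewhere. L1TD1 and DPPA4, both genes of pluripotent cells, were 164-fold lower at 77.5 units, and at least 79.6-fold lower. PRDM14, a transcriptional repressor that acts in germ cells and pluripotent cells, was at least 6.19-fold lower, and SOX2 at least 5.12-fold lower. KLF4 was 6.02-fold higher in TCam-2 at 10861 units. The RNA-binding genes LIN28A and LIN28B, in contrast, differed by 2.06-fold and 1.51-fold over the lines, close to the 1.98-fold of SALL4. In GCT44, SALL4 with 2414 units and LIN28A with 17340 units stood beside NANOG and DPPA4 below the floor. POU5F1 had no probe set assigned to it alone and is not analysed here.

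Of 18 genes that act with SALL1 and SALL4 in kidney and limb development, 11 were compared, 4 were below the floor in every line and 3 had no probe set of their own. Of the 11, 2 were higher in GCT44, where 1.70% of all genes compared were, and 1 was lower in GCT27, where 0.322% were. LHX1, a kidney and early endoderm factor, had 4470 units in GCT44 and lay below the floor in the other lines, at least 58.5-fold higher. KIF26B, a kinesin gene known as a target of SALL1 in kidney progenitors, had 1288 units in GCT44, 155 in NT2D1, 89.9 in TCam-2 and 7.82 in GCT27, and was 8.31-fold higher in the first. SALL1 itself had 4779 units in GCT44 but was also high in NT2D1 and GCT27. MEIS2, a homeobox gene of limb and neural development, was lower in GCT27 (at least 4.34-fold). SIX2, which marks nephron progenitors, had 382 units in GCT27 and 81.3 in NT2D1, and EYA1 was below the floor in every line.

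Of 9 genes described in the literature as targets of SALL proteins, 6 were compared and 1 lay at least 4-fold beyond every other line, or 16.7% against 7.10% of all genes compared, too few genes to set the list apart. The cyclin gene CCND1 had 6473 units in NT2D1, 2224 in GCT27, 4.66 in GCT44 and 767 in TCam-2, at least 10.0-fold lower in GCT44 than elsewhere. CDKN1A, the p21 cell cycle inhibitor reported as activated by SALL2, had 262 units in NT2D1, 724 in GCT27, 826 in GCT44 and 1111 in TCam-2. Its lowest line was thus the highest line of SALL2, and its highest line was the lowest of SALL2. PMAIP1, an apoptosis gene also reported as activated by SALL2, had 11443 units in TCam-2 and between 5873 and 6640 elsewhere. With 4 lines, 1 array each, no relation between a factor and a target can be tested.

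**Figure D4:**
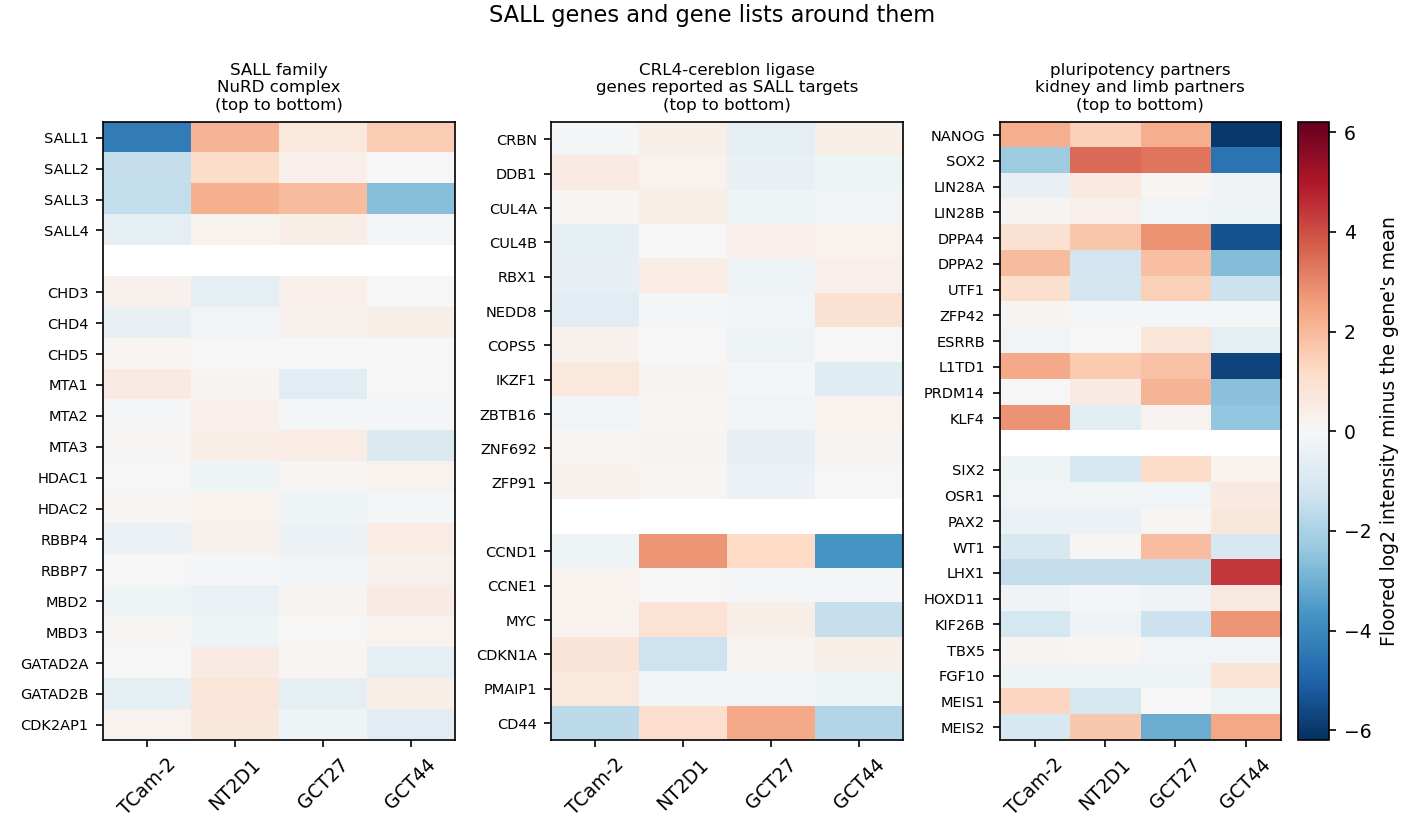
Heat map of the floored log2 intensity of each gene minus its own mean over the 4 lines (colour bar), for the SALL genes and the genes compared of 5 lists, in the 4 lines. With the floor applied, the NuRD and CRL4 genes stay within 3.09-fold over the lines and are pale, though folds of those with values below the floor are lower bounds. NANOG, DPPA4 and L1TD1 are darkest blue in GCT44 and LHX1 is darkest red there.

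The genes closest in pattern to each member were found by the Euclidean distance between the 4 floored log2 values, each gene centred on its own mean, for the 3 members that differed by at least 4-fold over the lines. For SALL1 these were CNTNAP2, a neural adhesion gene, at a distance of 1.06, the glutathione peroxidase GPX1 at 1.13 and the pseudogene DUXAP10 at 1.32, against a median of 5.09 over all genes compared. CNTNAP2 had 5667 units in NT2D1, 1616 in GCT27, 5709 in GCT44 and 132 in TCam-2. Like SALL1 it was low in TCam-2 alone. It was also lower in GCT27 than in NT2D1 and GCT44, as SALL1 was, though for SALL1 the order of GCT44 over GCT27 rests mainly on 1 probe set. GPX1 with 5145 units in GCT27 and 4056 in GCT44, and DUXAP10 with 3049 and 2976, had the other order.

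For SALL2 the closest genes were PPM1L, a phosphatase gene, at 0.24, the selenocysteine lyase SCLY at 0.25 and LINC00467 at 0.28, against a median of 2.05. SCLY had 810 units in NT2D1, 448 in GCT27, 299.9 in GCT44 and 120 in TCam-2. For SALL3 they were TNC, which encodes the matrix protein tenascin C, at 0.27, VASH2, a tubulin carboxypeptidase gene, at 0.53, and the surface glycoprotein gene THY1 at 0.59, against a median of 4.31. TNC had 2668 units in NT2D1, 1760 in GCT27, 79.5 in GCT44 and 171 in TCam-2, the same high and low pairs as SALL3. The closest genes lie below the median distance by the way they were picked, so the median gives only a scale. The distances are over 4 points that share arrays and are a description alone.

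**Figure D5:**
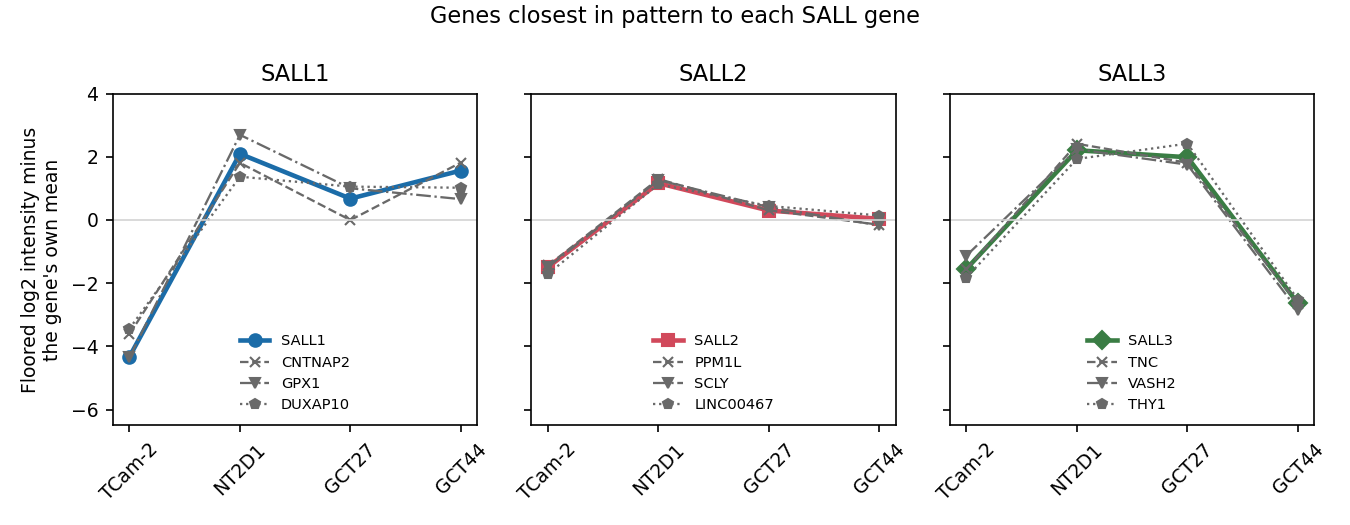
Floored log2 intensity minus each gene's own mean in the 4 lines, for SALL1, SALL2 and SALL3 (coloured) and the 3 genes closest to each (grey, 1 line style per gene). TNC, VASH2 and THY1 follow SALL3 with high values in NT2D1 and GCT27, and CNTNAP2, GPX1 and DUXAP10 share with SALL1 the drop in TCam-2.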

How the data were processed

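The authors profiled total RNA of 4 lines on Affymetrix U133 Plus arrays, 1 per line. They deposited linear intensity values for 54675 probe sets. Their mean after trimming 2% from each end was 500.1 on every array. The submitters' processing notes name RMA, which gives log2 values, so these are not its usual output, and log2 was taken here, as the authors' further steps are not given in the sources used here.

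41097 probe sets had a single gene symbol in the array annotation, 1801 several and 11777 none, and n is 1 per group. Where a gene had several single-gene probe sets, the one of highest mean log2 value was taken. The floor was 76.4 units. Calls required a distance of 2 on the log2 scale or more from the nearest other line. Python 3.11.15 was used, and the rule was tested on simulated data.

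The members and lists were chosen with earlier results of these data known. Named were all members and neighbours, from each list up to 4 called genes or else the first 3, further list genes chosen after their values were seen, and the 3 genes closest to each member. The marker, NuRD, CRL4, pluripotency, kidney and limb, and target lists had 114 entries. Alternatives were other probe set choices, floors, scalings, thresholds and references.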

Additional observations from a re-analysis of the deposited data

How the results depend on the processing

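The difference between the highest and lowest line kept its side of 4-fold under every choice of probe set, floor and scaling tried, with log2 values of 4.77 to 6.44 for SALL1, 2.58 to 2.69 for SALL2, 3.12 to 5.09 for SALL3 and 0.88 to 1.23 for SALL4. SALL2 has no value without _s_at probe sets. The gap of SALL3 between the pairs of lines, defined after the values were seen, was 2.90 to 3.77. Scaling to the spiked-in controls and choosing probe sets by the linear mean were added after seeing the data. With the former, SALL2 in GCT27 minus TCam-2 rose to 2.04, past 4-fold. With a threshold of 1, 2 members were lower in TCam-2 (SALL1 and SALL2) and 1 in GCT44 (SALL3). At that threshold 467 of the 14926 genes compared were lower in TCam-2 and 664 in GCT44. With the other lines' mean as the reference, 2 members were lower in TCam-2 and 2 higher in NT2D1 (SALL1 and SALL3 in both). SALL3 was then the 1 higher in GCT27 and the 1 lower in GCT44, and SALL1 the 1 higher in GCT44. The share of all genes was not computed with this reference, so these counts have no background.

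Counts over all genes moved with the floor and with the threshold. With no floor, 324 genes were lower in TCam-2, 121 higher and 198 lower in NT2D1, 150 higher and 193 lower in GCT27, and 713 lower in GCT44. With the floor at 252 units, the counts higher and lower were 143 and 60 in TCam-2, 29 and 22 in NT2D1, 57 and 17 in GCT27, and 150 and 98 in GCT44. With a threshold of 1 they were 690 and 467, 420 and 295, 471 and 278, and 726 and 664 in that order. The median over probe sets gave 70 lower in TCam-2, 26 in GCT27 and 135 in GCT44, and the spiked-in controls 148 higher in GCT27. Scaled in this way, the median of all genes, each centred on its mean, was 0.21 in GCT27 and -0.23 in GCT44.

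Among the lists, no floor gave 1 of 15 NuRD genes and 5 of 11 kidney and limb genes called. Targets called were 2 of 6 with the median over probe sets and 0 of 6 with the higher floor. A threshold of 1 gave 1 of 11 CRL4 genes, 6 of 11 kidney and limb genes, 4 of 6 targets and 2 of 7 neighbours. Calls over all genes also rose with no floor and with a threshold of 1. The share of all genes called in any line was not computed under these settings, so these counts are not read against it. The cause of these shifts was not tested. No paired analysis was possible because each line has 1 array.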
